A study of Mus musculus with 6 samples.

Results

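The phagocyte NADPH oxidase was followed here through 7 genes: Cybb, Cyba, Ncf1, Ncf4, Rac1, Rac2 and Hvcn1. They were taken by symbol from the 16266 genes of the deposited tables, as subunits of the oxidase, the Rac GTPases that switch it on and the proton channel that works beside it. All 7 passed the filter on low counts, with 4611 to 60228 counts per library. Libraries came from bone marrow-derived macrophages, which are macrophages grown out of mouse marrow, and those of both groups had received lipopolysaccharide (LPS) for 24 h. One group of 3 carried a knockout of Capns1 (KO), the small regulatory subunit of calpains 1 and 2, and the other 3 libraries were wild type (WT). The study's title speaks of a deletion specific to myeloid cells. The labels give neither the driver of that deletion nor the strain or age of the mice, and nothing in them ties a replicate to its own mouse or culture, so p-values measure the spread between these libraries, which may be technical. The genotype field reads CAPNS1-KO, CAPNS2-KO and CAPNS3-KO in KO replicates 1, 2 and 3, while the design text names Capns1 for the group.

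The oxidase moves electrons from NADPH in the cytosol to oxygen inside the phagosome or outside the cell, which makes superoxide. Its membrane part, flavocytochrome b, is a pair of gp91phox (Cybb, also called NOX2), which carries the electrons, and p22phox (Cyba), which stabilises it. In resting cells the cytosolic subunits stay apart from it, and on stimulation p47phox (Ncf1) and p40phox (Ncf4) move to the membrane with a Rac protein bound to GTP. Charge carried by the electrons is balanced by protons leaving through the channel Hvcn1. Human patients who lack Cybb, Cyba, Ncf1 or Ncf4 function have chronic granulomatous disease, in which phagocytes kill certain microbes poorly.

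Capns1 was checked first. It stood at 9.51, 9.94 and 9.13 CPM (a gene's counts scaled to the library total) in KO replicates 1, 2 and 3, against 492, 478 and 521 CPM in WT replicates 1, 2 and 3. Each KO library thus showed low Capns1, whichever gene its genotype field names. Library totals were 32631163 to 40913819 counts, and the counting floor of 3 counts equals 0.0733 to 0.0919 CPM. On the second principal component, with 15.9% of the variance, KO replicate 2 scored -25.5, against 10.4 to 12.6 in the remaining KO libraries, and WT replicate 3 scored 23.2, against -12.4 to -8.21 in the remaining WT libraries. Results are also given without this pair. Macrophage markers were abundant, with summed levels of 34346 to 39442 CPM in KO and 36164 to 43673 CPM in WT libraries. Of 10, 0 were called higher and 2 lower, Cd14 and Fcgr3 (median log2 fold change -0.15). Over all tested genes, 8.44% were called higher and 6.21% lower, which is also the background for the marker counts below. Markers of granulocytes and their precursors were not low, with sums of 1347 to 1731 CPM in KO and 1515 to 1907 CPM in WT libraries. Markers of B cells, T and NK cells, eosinophils and dendritic cells were low but not absent. Those of B cells summed to 7.78 to 8.52 CPM in KO and 8.97 to 11.6 CPM in WT libraries, with 1 of 2 tested called higher (Ebf1, 1.06 CPM in KO and 0.183 CPM in WT). Those of T and NK cells summed to 7.23 to 9.13 CPM in KO and 9.02 to 13.7 CPM in WT libraries, with 1 of 2 tested called lower (Nkg7, 0.458 CPM in KO and 1.92 CPM in WT). Eosinophil markers summed to 6.10 to 10.3 CPM in KO and 11.3 to 16.5 CPM in WT libraries, with 0 of 4 tested called by edgeR and 3 at an unadjusted p under 0.05. Dendritic cell markers summed to at most 1.05 CPM in KO and 1.38 CPM in WT libraries. Endothelial markers summed to 16.6 to 20.5 CPM in KO and 18.1 to 21.7 CPM in WT libraries, with 2 of 5 tested called lower. Erythroid and megakaryocyte markers were not low, with sums of 317 to 372 CPM in KO and 228 to 290 CPM in WT libraries. Of 4 tested, 1 was called higher. The call of Ebf1 was lost under 6 alternatives, among them leaving out KO replicate 3, WT replicate 1 or WT replicate 2.

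Promoter windows of 300 bases were found in RefSeq (GRCm38.p6) for 3 of the 7 genes, and not for Ncf4, Rac1, Rac2 and Hvcn1. They are printed because factors known to act on oxidase genes are described among the results: PU.1 (Spi1), and the interferon regulatory factors Irf8 and Irf1. Each runs 5′ to 3′ on the gene's strand, with 250 bases before the transcription start and 50 from it on. Capitals mark matches, on either strand, to GAGGAA (the core of a PU.1 site) and to GAAA repeated after any pair of bases (the interferon response type). The windows are chrX:9469275-9469574 for Cybb, chr8:122432891-122433190 for Cyba and chr5:134229576-134229875 for Ncf1, each on the minus strand. The start in the Cybb window lies 18.4 kb inside the gene's annotated extent.
Cybb: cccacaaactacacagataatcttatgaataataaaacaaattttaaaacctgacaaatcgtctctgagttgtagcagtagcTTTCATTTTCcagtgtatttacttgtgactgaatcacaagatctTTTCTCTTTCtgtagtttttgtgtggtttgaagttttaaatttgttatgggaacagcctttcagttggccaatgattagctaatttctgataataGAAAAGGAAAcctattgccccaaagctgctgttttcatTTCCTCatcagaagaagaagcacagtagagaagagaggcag
Cyba: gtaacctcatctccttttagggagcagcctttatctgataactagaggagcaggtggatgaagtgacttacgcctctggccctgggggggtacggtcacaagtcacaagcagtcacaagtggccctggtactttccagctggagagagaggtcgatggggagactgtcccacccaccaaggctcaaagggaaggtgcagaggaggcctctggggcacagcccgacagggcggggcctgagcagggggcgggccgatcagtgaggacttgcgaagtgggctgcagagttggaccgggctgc
Ncf1: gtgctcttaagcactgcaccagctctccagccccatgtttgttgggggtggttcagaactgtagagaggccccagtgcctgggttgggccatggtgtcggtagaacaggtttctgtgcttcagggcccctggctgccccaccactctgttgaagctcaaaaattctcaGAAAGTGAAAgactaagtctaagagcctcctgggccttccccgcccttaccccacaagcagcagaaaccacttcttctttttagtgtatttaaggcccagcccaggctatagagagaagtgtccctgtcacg
The Cybb window held 3 matches of the interferon response type, at its bases 83 to 92, 127 to 136 and 222 to 231, and 1 PU.1 core at bases 260 to 265, just past the start. The Ncf1 window held 1 interferon response match at bases 169 to 178 and no PU.1 core. The Cyba window held neither motif. Among 32851 such windows, 28.3% held the PU.1 core and 3.44% the interferon response type. A match is a string of letters and not a shown binding site.

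One oxidase gene differed between the groups. Ncf4 fell in KO, whereas Cybb, Cyba, Ncf1, Rac1, Rac2 and Hvcn1 were not called. A gene is termed called where its Benjamini-Hochberg adjusted p in edgeR's quasi-likelihood test, over 12219 genes, is under 0.05. The share of called genes was 14.6% over all tested genes (8.44% higher and 6.21% lower in KO), so 1 of 7 is close to the background. The median log2 fold change, KO minus WT, was 0.040 over the 7 genes and -0.011 over all genes tested. The 95% intervals of the 6 genes that were not called lay between -0.26 and 0.42 on the log2 scale, or 0.835-fold to 1.33-fold. These outer bounds pool 6 intervals, and each gene's own interval is narrower and is given with it below. A true change anywhere within a gene's own interval would be compatible with these libraries.

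**Figure D1:**
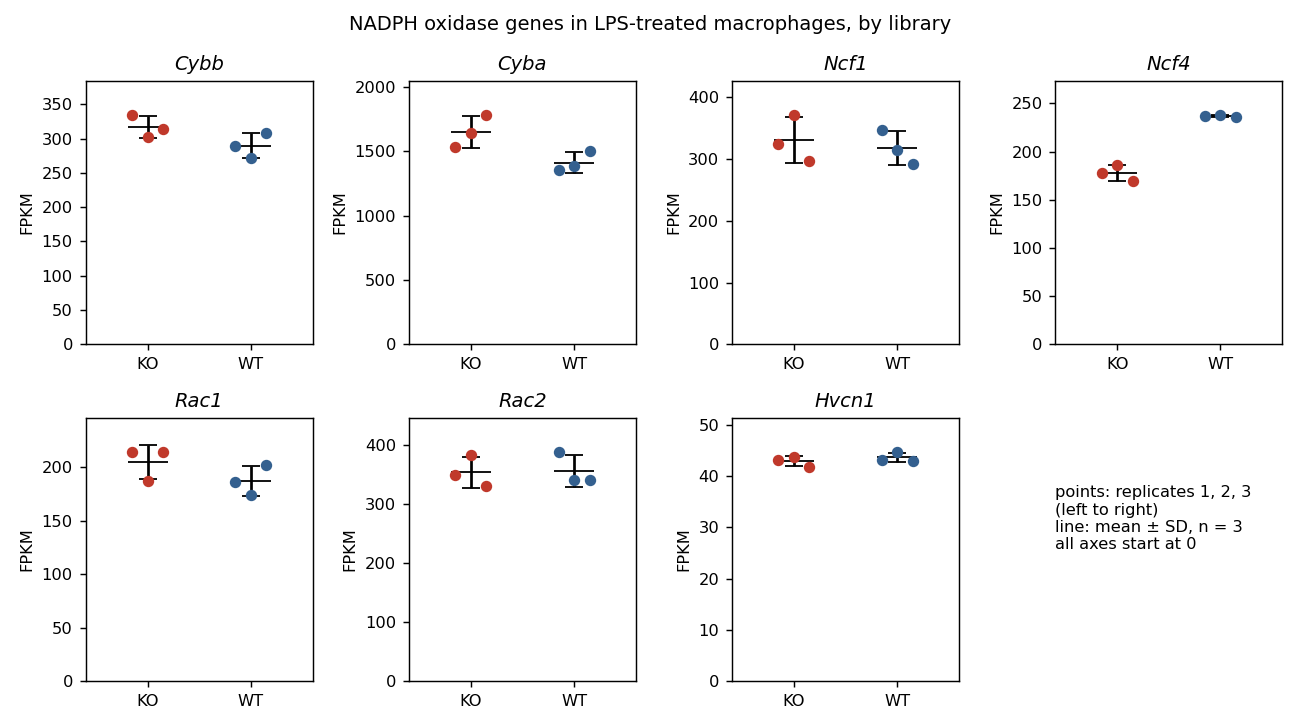
FPKM of each oxidase gene (vertical axes, all starting at 0) in the 3 KO libraries (red, left) and the 3 WT libraries (blue, right). Points are replicates 1 to 3 from left to right, and lines are mean ± SD. Ncf4 lies at 169 to 186 FPKM in KO and 236 to 238 FPKM in WT, and the groups also do not overlap for Cyba.

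**Figure D2:**
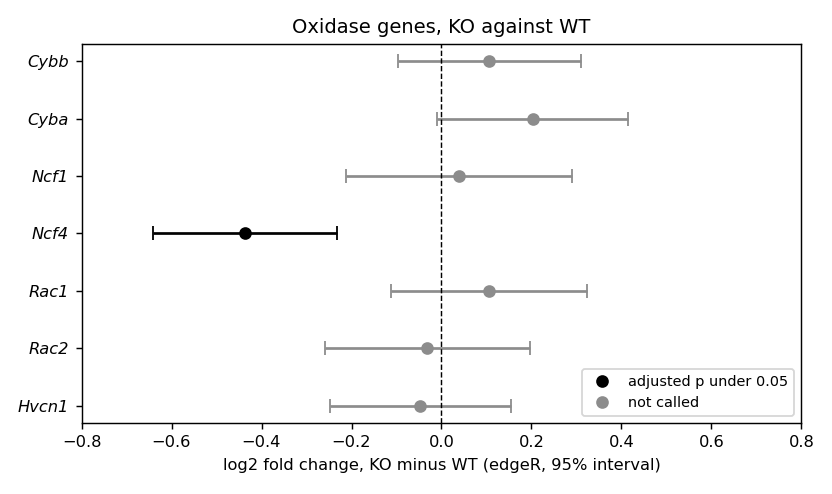
Log2 fold change, KO minus WT, of the 7 oxidase genes from edgeR (horizontal axis), with 95% intervals. Ncf4, in black at -0.44, is the 1 called gene, and the intervals of the 6 genes in grey include 0.

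Per length of transcript, Cyba was by far the most abundant of the 7, and Hvcn1 the least. Levels are compared in the authors' FPKM, which divides the count by gene length and library total. Over the 6 libraries Cyba averaged 1532 FPKM (range 1352 to 1779), Rac2 355 (329 to 387), Ncf1 324 (292 to 371), Cybb 303 (272 to 334), Ncf4 207 (169 to 238), Rac1 196 (174 to 214) and Hvcn1 43.3 (41.8 to 44.7). Cyba stood above Rac2 in 6 of 6 libraries without overlap of their ranges, as did Cybb above Ncf4 and Rac1 above Hvcn1. Ncf1 stood above Cybb in 3 of 6 libraries and Ncf4 above Rac1 in 3 of 6, so those neighbours were not ordered beyond their spread. Between Ncf4 and Rac1 the order went with genotype, Rac1 being higher in the 3 KO libraries and Ncf4 in the 3 WT libraries. Ranked by mean FPKM among 12219 genes, Cyba was at place 30, and Rac2, Ncf1 and Cybb were at places 194, 215 and 236. Hvcn1 was at place 1526.

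Ncf4 encodes p40phox, whose PX domain binds a phosphoinositide of the phagosome membrane and which sustains superoxide production there. The gene lies on chromosome 15 at 78244164 to 78262582 (GRCm38). It stood at 304, 317 and 289 CPM in KO replicates 1, 2 and 3, against 405, 406 and 403 CPM in WT replicates 1, 2 and 3. Every KO library was below every WT library, and the WT libraries were almost alike. Means were 303 ± 14.1 CPM in KO and 405 ± 1.21 CPM in WT (SD, n = 3 each). The log2 fold change was -0.44 ± 0.093 SE, or 0.739-fold (95% interval 0.641 to 0.851), with an edgeR adjusted p of 0.00909. A two-sided exact permutation test on log2 CPM gave p = 0.1, the smallest that 3 against 3 libraries allow. The groups did not overlap in CPM for 2 of the 7 genes, Ncf4 and Cyba, and for 33.6% of all tested genes. No stretch of 32 bases in the transcripts of Ncf4 occurs in another gene's transcripts, and no annotated gene overlaps it.

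The fall of Ncf4 was close to the threshold with fewer libraries. Its call was lost without KO replicate 1 (log2 fold change -0.41, adjusted p = 0.0504) or KO replicate 3 (-0.38, adjusted p = 0.0559) and was kept under 16 of 18 alternatives, which gave adjusted p from 6.69e-05 to 0.0559 over all 18. Without KO replicate 2 and WT replicate 3, the pair that stood apart, its log2 fold change was -0.49 (adjusted p = 7.83e-04). In bulk RNA a lower level per cell and fewer cells that carry the transcript cannot be told apart. Phagocyte oxidase genes are also strongly expressed in granulocytes, and in these libraries 2 of 13 tested granulocyte and precursor markers were called higher and 4 lower in KO. These are 15.4% and 30.8% of the list, beside 8.44% and 6.21% over all tested genes. The granule genes of precursors Mpo, Elane and Prtn3 fell by 0.99, 0.93 and 0.93 on the log2 scale and Csf3r, the receptor for granulocyte colony-stimulating factor, by 0.50, while S100a8 and S100a9 rose by 0.75 and 0.49. The call of S100a9 was lost under 7 of 18 alternatives. The summed level of this list, whose members went both ways, overlapped between the groups, at 1347 to 1731 CPM in KO and 1515 to 1907 CPM in WT libraries. Among macrophage markers, Cd14 (-0.34) and Fcgr3 (-0.46) fell, and the call of Cd14 was lost without any 1 library but KO replicate 2 (adjusted p up to 0.133). Of 9 tested fibroblast and stroma markers, 5 (55.6%) were called higher and 0 lower. The list summed to 342 to 416 CPM in KO and 161 to 195 CPM in WT libraries. The part of these cell markers in the level of Ncf4 was not tested.

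**Figure D3:**
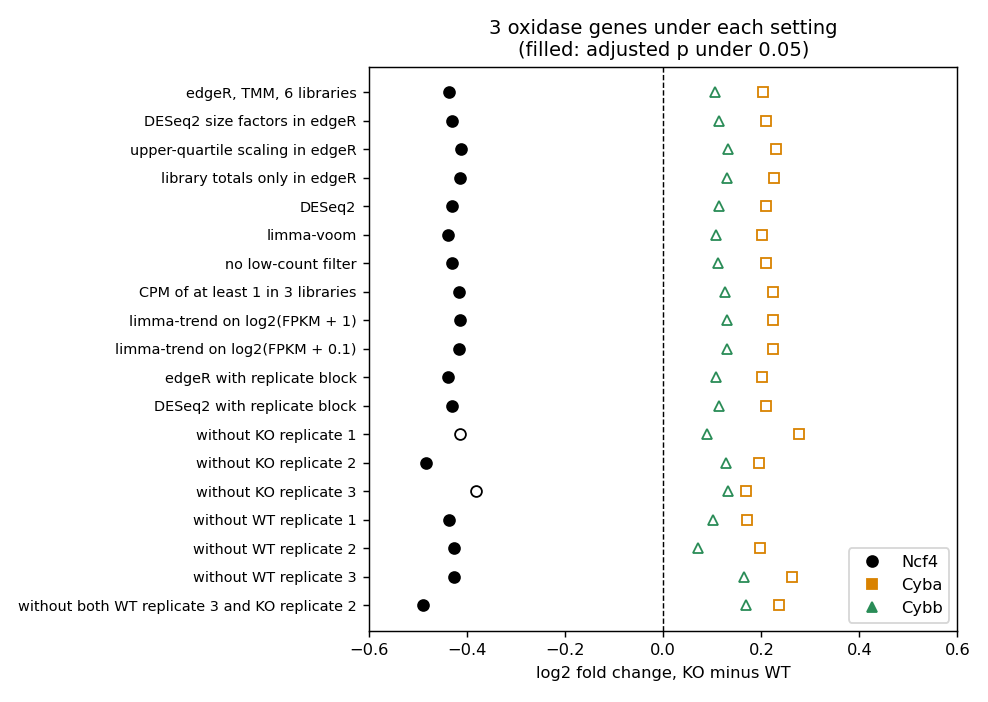
Log2 fold change, KO minus WT (horizontal axis), of Ncf4, Cyba and Cybb under the main setting and 18 alternatives (rows), with filled symbols where adjusted p is under 0.05. Ncf4 stays between -0.49 and -0.38 and is open without KO replicate 1 or KO replicate 3. Cyba lies between 0.17 and 0.28 and Cybb between 0.071 and 0.17, open in every row.

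Neither gene of the flavocytochrome was called. Cybb, on chromosome X at 9435252 to 9487766, stood at 1597, 1443 and 1504 CPM in KO replicates 1, 2 and 3, against 1383, 1301 and 1472 CPM in WT replicates 1, 2 and 3. The groups overlapped, since WT replicate 3 was above KO replicate 2. The log2 fold change of Cybb was 0.11 ± 0.093 SE (edgeR adjusted p = 0.51; 95% interval -0.098 to 0.31). Cyba, on chromosome 8 at 122424771 to 122432940, stood at 1163, 1248 and 1351 CPM in KO replicates 1, 2 and 3, against 1026, 1051 and 1139 CPM in WT replicates 1, 2 and 3. In CPM each KO library was above each WT library, but by a margin smaller than the spread within either group, with 1254 ± 94.0 CPM in KO and 1072 ± 59.2 CPM in WT (SD, n = 3 each). Its log2 fold change was 0.20 ± 0.097 SE (edgeR adjusted p = 0.197; 95% interval -0.0095 to 0.42), and no alternative called it. The length of Cyba implied by its counts and FPKM is short, at 759 bases. Tested genes of similar implied length (206 to 1898 bases) had a median log2 fold change of 0.079. Of its words of 32 bases, 7.01% occur in other genes. Gm20388, which was not among the tested genes, overlaps Cyba on the opposite strand but is not a main holder of these words.

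Both partners are needed for a stable flavocytochrome, so their ratio was taken within each library. Cybb amounted to 0.218, 0.184 and 0.177 of the FPKM of Cyba in KO replicates 1, 2 and 3, against 0.214, 0.196 and 0.205 in WT replicates 1, 2 and 3. KO libraries gave both the highest and the lowest value, and the overlap rested on KO replicate 1. The difference, KO minus WT, was -0.012 with 6 libraries and -0.0043 without KO replicate 3. Without KO replicate 1 it was -0.025, with no overlap and a two-sided exact permutation p of 0.1. The means were 0.193 ± 0.022 in KO and 0.205 ± 0.0087 in WT (SD, n = 3 each; two-sided exact permutation p = 0.5, where 0.1 is the smallest possible). A list of 3 further genes of oxidase assembly had 0 called by edgeR, and 0 at an unadjusted p under 0.05. It includes Cybc1, a chaperone that gp91phox needs to mature, at 112 ± 11.5 CPM in KO and 126 ± 9.92 CPM in WT (SD, n = 3 each; log2 fold change -0.20, adjusted p = 0.292). Without KO replicate 2 and WT replicate 3, Cybc1 was called as lower (-0.37, adjusted p = 0.00610). Rap1a, a small GTPase found with flavocytochrome b, had a log2 fold change of 0.022 (adjusted p = 0.924).

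Ncf1, whose product p47phox is phosphorylated on activation and carries the cytosolic subunits to p22phox, was not called. It lies on chromosome 5 at 134220053 to 134229628 and stood at 899, 1025 and 822 CPM in KO replicates 1, 2 and 3, against 958, 871 and 807 CPM in WT replicates 1, 2 and 3. KO replicate 2 was the highest and WT replicate 3 the lowest of the 6, and the groups overlapped. The log2 fold change of Ncf1 was 0.040 ± 0.11 SE (edgeR adjusted p = 0.869; 95% interval -0.21 to 0.29). It was -0.066 without KO replicate 2, -0.0058 without WT replicate 3 and -0.13 without both (adjusted p = 0.351), so no direction can be given. Gtf2ird2 overlaps Ncf1 on the opposite strand and holds most of the 9.68% of its words found in other genes. With 5.46 CPM in KO and 6.26 CPM in WT, Gtf2ird2 was far less abundant than Ncf1.

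Relative to its partners Ncf4 was lower in KO in every library. Both ratios were chosen after the values of Ncf4 were seen. Ncf4 came to 0.547, 0.501 and 0.569 of the FPKM of Ncf1 in KO replicates 1, 2 and 3, against 0.684, 0.754 and 0.809 in WT replicates 1, 2 and 3. Set against Cybb, it came to 0.533, 0.616 and 0.538 in KO replicates 1, 2 and 3, against 0.820, 0.873 and 0.767 in WT replicates 1, 2 and 3. Groups did not overlap in either ratio. Each gave a two-sided exact permutation p of 0.1, the smallest possible, so that a difference between the change of Ncf4 and that of Ncf1 or Cybb could not pass 0.05 by this test.

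**Figure D4:**
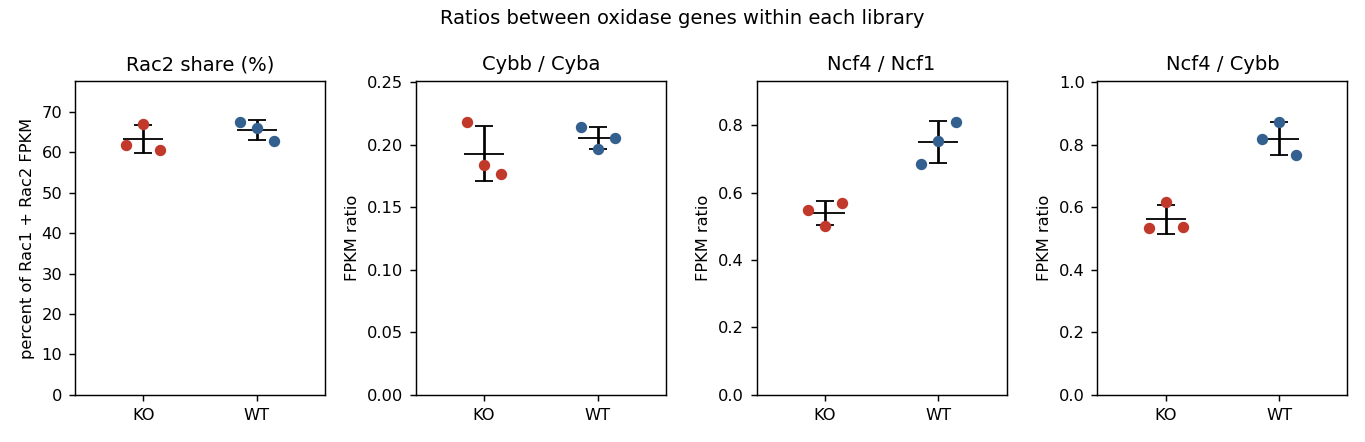
Ratios of FPKM within each library for KO (red, left) and WT (blue, right), with points for replicates 1 to 3 and lines for mean ± SD. Vertical axes start at 0; the first panel is a percentage and the others are plain ratios. Groups overlap for the Rac2 share and for Cybb over Cyba, whereas Ncf4 over Ncf1 is 0.501 to 0.569 in KO and 0.684 to 0.809 in WT.

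The Rac GTPases did not differ by the test. Rac2, largely restricted to blood cells and the main oxidase Rac of neutrophils, stood at 1058, 1159 and 1000 CPM in KO replicates 1, 2 and 3, against 1176, 1032 and 1034 CPM in WT replicates 1, 2 and 3. Highest were WT replicate 1 and KO replicate 2, and the groups overlapped. Its log2 fold change was -0.032 ± 0.10 SE (edgeR adjusted p = 0.886; 95% interval -0.26 to 0.20), and it turned to 0.00069 without KO replicate 1, 0.037 without KO replicate 3 and 0.032 without WT replicate 1. Rac1, found in nearly all cells and active in cytoskeletal movement, stood at 499, 435 and 498 CPM in KO replicates 1, 2 and 3, against 433, 406 and 470 CPM in WT replicates 1, 2 and 3. KO replicates 1 and 3 were the highest, and KO replicate 2 lay next to WT replicate 1. The log2 fold change of Rac1 was 0.11 ± 0.099 SE (edgeR adjusted p = 0.541; 95% interval -0.11 to 0.32). Rac2 is on chromosome 15 at 78559169 to 78572783, about 296.6 kb from Ncf4, and Rac1 on chromosome 5 at 143505481 to 143528031.

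Rac2 made up the larger part of the pair in every library. Its share of the summed FPKM of both was 61.9%, 67.1% and 60.6% in KO replicates 1, 2 and 3, against 67.5%, 66.1% and 62.8% in WT replicates 1, 2 and 3. The groups overlapped through KO replicate 2, with means of 63.2 ± 3.45% in KO and 65.5 ± 2.44% in WT (SD, n = 3 each; two-sided exact permutation p = 0.4, where 0.1 is the smallest possible). The difference was -2.26 percentage points with 6 libraries, -4.21 without KO replicate 2, -3.60 without WT replicate 3 and -5.56 without both, and -0.951 and -1.22 without KO replicate 3 or WT replicate 1. The proteins are close relatives, but their transcripts share 0% of words of 32 bases. Of the words of Rac1, 51.2% occur in other genes, nearly all in Daglb, which overlaps it on the opposite strand and stood at 94.0 CPM in KO and 82.4 CPM in WT. The libraries are strand-specific per the labels, but no source used here says whether counting used strand, so the value of Rac1 is uncertain.

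Hvcn1, the voltage-gated proton channel, was steady in all 6 libraries. It lies on chromosome 5 at 122206805 to 122242297 and stood at 146, 148 and 141 CPM in KO replicates 1, 2 and 3, against 146, 151 and 145 CPM in WT replicates 1, 2 and 3. The groups overlapped and the spread was small, with a coefficient of variation of 2.29% in KO and 2.09% in WT. The log2 fold change was -0.047 ± 0.092 SE (edgeR adjusted p = 0.797; 95% interval -0.25 to 0.15). Tctn1 overlaps Hvcn1 on the opposite strand and holds 41.4% of its words, at 14.8 CPM in KO and 13.8 CPM in WT, so the strand limit given for Rac1 holds here too.

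The 7 genes did not vary together from library to library. Cybb and Rac1 ran in the same order through the 6 libraries in CPM: KO replicate 1, KO replicate 3, WT replicate 3, KO replicate 2, WT replicate 1 and WT replicate 2, from high to low. In KO replicate 2, by contrast, Ncf1 and Rac2 were at their highest within the KO group, and Cybb and Rac1 at their lowest. Likeness of pattern was measured as the root mean squared difference of log2 CPM, each gene centred on its own mean over 6 libraries, among 8976 other genes. Nearest to Cybb were Csnk2b (0.012), Grina (0.020) and Slc38a10 (0.023), none of them called. Nearest to Ncf4 were Tmem176b (0.034), Fxyd5 (0.035) and Mpeg1 (0.037). All 3 were called as lower in KO, as their closeness to Ncf4 implies, with log2 fold changes of -0.39, -0.45 and -0.38. The calls of Tmem176b and Mpeg1 were lost without KO replicate 1, KO replicate 3 or WT replicate 1 (adjusted p up to 0.0658 and 0.0911). In the tables' own annotation, 4 of the 7 genes carry the term respiratory burst. Of the 9 tested genes with that term, Ncf4 was called as lower and 1 gene, Slc11a1, as higher. Over all tested genes 14.6% were called, so with so few genes this count is close to the background. The call of Slc11a1 was lost without WT replicate 2 (adjusted p = 0.0506).

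Around the oxidase, 18 listed genes were called as lower and 7 as higher in KO. Over 9 lists without the 7 genes, 5.83% of 120 tested genes were called higher and 15% lower, beside 8.44% and 6.21% of all genes tested. The shares over all genes are also the background for the count of each list below. The median log2 fold change of the 120 listed genes was -0.054, beside -0.011 over all genes. The lead of lower calls was narrower with some libraries left out, while over all genes higher calls led. In the lists 5 were higher and 6 lower without KO replicate 1, where all genes gave 760 and 359. They were 4 and 8 without KO replicate 3 (all genes 747 and 402) and 4 and 9 without WT replicate 1 (704 and 434). Without WT replicate 2 they were 4 and 11 (789 and 431). Without both libraries that stood apart, 15 were higher and 28 lower in the lists, beside 1681 and 1505 over all genes.

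**Figure D5:**
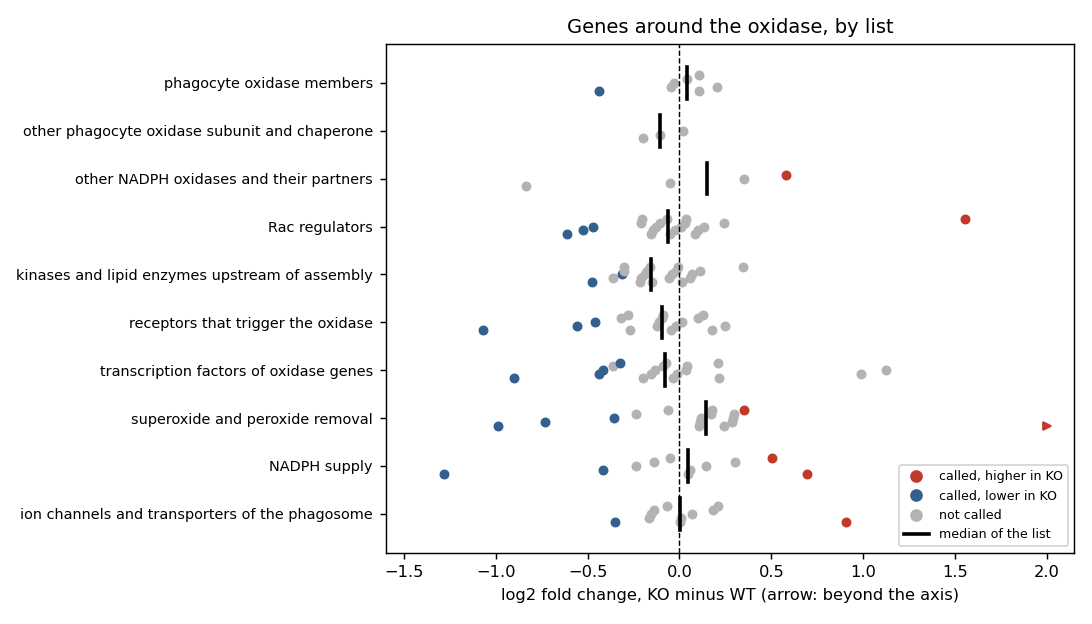
Log2 fold change, KO minus WT (horizontal axis), of every tested gene in the oxidase group and 9 lists of genes around it (rows), with called genes in red (higher in KO) or blue (lower in KO), other genes in grey and the list's median as a black bar. The arrow is Sod3, beyond the axis. Receptors, transcription factors and kinases hold 3, 4 and 2 genes called lower and 0 called higher. These are 17.6%, 22.2% and 10% of their tested genes, beside 6.21% called lower and 8.44% called higher over all genes. Calls in the other rows went both ways or numbered at most 1.

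Among the listed receptors that set off or restrain the oxidase, Fcgr2b fell the most. Of 17 tested, 0 were called higher and 3 lower (median log2 fold change -0.097), all of them receptors for immunoglobulin G. Fcgr2b, the inhibitory one, stood at 384 to 388 CPM in KO and 714 to 905 CPM in WT libraries, with no overlap (log2 fold change -1.07 ± 0.10 SE, edgeR adjusted p = 5.29e-05). Fcgr3, an activating receptor, had 593 ± 4.43 CPM in KO and 802 ± 95.1 CPM in WT (SD, n = 3 each; log2 fold change -0.46, adjusted p = 0.0111). Fcgr3 and Fcgr2b share 13.2% and 8.0% of their words with other genes, in large part with each other, so their values are uncertain. Fcgr4, also activating, had 460 ± 61.3 CPM in KO and 667 ± 127 CPM in WT (SD, n = 3 each; log2 fold change -0.56, adjusted p = 0.0268). Itgam, the alpha chain of complement receptor 3, was not called (-0.097, adjusted p = 0.56). The call of Fcgr3 was lost without KO replicate 1 or KO replicate 3 (adjusted p up to 0.0561). That of Fcgr4 was lost without either of these or WT replicates 1 or 2 (up to 0.125), and by limma-trend on log2 FPKM with either pseudocount, 1 or 0.1 (up to 0.0585).

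Of 18 transcription factors listed around the oxidase, 0 were called higher and 4 lower. Irf8, a myeloid factor that acts with PU.1, had 255 ± 5.62 CPM in KO and 315 ± 9.39 CPM in WT (SD, n = 3 each; log2 fold change -0.33, edgeR adjusted p = 0.0324). Irf1, induced by interferon, had 104 ± 5.37 CPM in KO and 138 ± 10.1 CPM in WT (SD, n = 3 each; log2 fold change -0.44, adjusted p = 0.0142). Bach1, a repressor of antioxidant genes (-0.42, adjusted p = 0.0305), and Cebpe, a factor of granulocyte maturation at 4.84 CPM in KO and 8.85 CPM in WT (-0.90, adjusted p = 0.0103), fell too. Spi1, which encodes PU.1, was not called (log2 fold change -0.038 ± 0.091 SE, adjusted p = 0.839). Cybb and Ncf1, whose windows printed above hold matches of the interferon response type, were not called, and no window was found for Ncf4. The part of Irf8 and Irf1 in the level of any oxidase gene was not tested. The calls of Irf8, Irf1 and Bach1 were lost without KO replicate 1, KO replicate 3 or WT replicate 1, with adjusted p up to 0.136, 0.0800 and 0.109. Irf8 lost its call also without WT replicates 2 or 3, Irf1 without WT replicate 2, and Bach1 without KO replicate 2 or WT replicate 3. Bach1 lost it also by limma-trend on log2 FPKM with either pseudocount, 1 or 0.1 (adjusted p up to 0.0711).

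Kinases and lipid enzymes upstream of assembly had 0 of 20 called higher and 2 lower. Irak4, a kinase that carries the LPS signal and phosphorylates p47phox, fell to 54.9 ± 1.08 CPM in KO, against 75.3 ± 6.13 CPM in WT (SD, n = 3 each; log2 fold change -0.48, edgeR adjusted p = 0.00904). Mapk3, which encodes the kinase ERK1, was lower (log2 fold change -0.31, adjusted p = 0.0396), but its call was lost without any 1 of the 6 libraries (adjusted p up to 0.144), with upper-quartile scaling (0.0507) and without the low-count filter (0.0559). Of Rac regulators, 1 of 20 was called higher and 3 lower. The exchange factors Vav3 (-0.47, adjusted p = 0.0128) and Tiam1 (-0.61, adjusted p = 0.0268) and the Rac-inactivating protein Arhgap15 (-0.53, adjusted p = 0.0148) fell. Tiam2, another exchange factor, rose (1.56, adjusted p = 0.0199), at only 1.41 CPM in KO and 0.47 CPM in WT. Vav3 lost its call without KO replicate 1, Arhgap15 without KO replicates 1 or 3 or WT replicates 1 or 2, Tiam1 without KO replicates 1 or 2 or WT replicates 1 or 3, and Tiam2 without KO replicate 2 or WT replicates 1 or 2. Adjusted p then reached 0.0709, 0.0796, 0.0851 and 0.0777. Tiam1 also lost its call without both KO replicate 2 and WT replicate 3 (adjusted p = 0.0884) and by limma-trend on log2 FPKM with either pseudocount, 1 or 0.1 (up to 0.0935). By limma-trend Tiam2 lost its call with a pseudocount of 1 (adjusted p = 0.0719) and Arhgap15 with 0.1 (adjusted p = 0.0515). The abundant regulators Vav1, Prex1, Arhgdia and Arhgdib were not called (log2 fold change 0.0060, -0.026, 0.13 and 0.083).

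Other NADPH oxidases were scarce. Of 12 listed genes, 10 were in the tables and 4 passed the low-count filter, which left out Nox1, Nox4, Duox2, Duoxa1, Duoxa2 and Noxa1. Sh3pxd2a, an organiser protein of invadopodia, was called higher (20.1 ± 4.04 CPM in KO and 13.2 ± 2.34 CPM in WT, SD, n = 3 each; log2 fold change 0.58, edgeR adjusted p = 0.0407). Its call was lost without KO replicate 1, KO replicate 3, WT replicate 1 or WT replicate 2 (adjusted p up to 0.144), and by limma-trend on log2 FPKM with either pseudocount (up to 0.0891).

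Genes that remove superoxide and peroxide moved both ways, with 2 of 16 called higher and 3 lower. Gpx3, a secreted glutathione peroxidase, averaged 181 CPM in KO and 295 CPM in WT libraries (log2 fold change -0.73, edgeR adjusted p = 0.00134). Catalase, Cat, was lower (-0.36, adjusted p = 0.0233) and lost its call without KO replicates 1 or 3 or WT replicates 1 or 3 (adjusted p up to 0.0956). Mpo, which turns peroxide into hypochlorous acid and also marks granulocyte precursors, had 101 ± 33.7 CPM in KO and 197 ± 35.6 CPM in WT (SD, n = 3 each; log2 fold change -0.99, adjusted p = 0.00981). Sod3, the extracellular superoxide dismutase, rose to 5.75 to 7.78 CPM in KO libraries, against 0.0757 to 0.202 CPM in WT libraries (log2 fold change 5.37, adjusted p = 1.80e-06). The lowest WT library held 3 counts of Sod3, so the size of that fold is uncertain. Prdx2, a cytosolic peroxiredoxin, completed the 5 calls (log2 fold change 0.35, adjusted p = 0.0304), a call lost without any 1 library but WT replicate 2 (up to 0.117). Sod1 (0.17, adjusted p = 0.309) and Sod2 (0.30, adjusted p = 0.156), the cytosolic and mitochondrial dismutases, were not called. The fibroblast and stroma markers given beside Ncf4 were higher in the same KO libraries, and their part in the level of Sod3 was not tested.

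The supply of NADPH moved both ways as well, with 2 of 11 genes called higher and 2 lower. G6pdx, the first enzyme of the pentose phosphate pathway, was not called (-0.14, adjusted p = 0.418), nor was Pgd (0.047, adjusted p = 0.797). Nnt, the mitochondrial transhydrogenase, fell to 22.1 ± 1.78 CPM in KO, against 53.1 ± 10.0 CPM in WT (SD, n = 3 each; log2 fold change -1.28 ± 0.15 SE, edgeR adjusted p = 1.86e-04). The labels give no strain, so whether the groups share 1 could not be checked for Nnt. Idh1, the cytosolic isocitrate dehydrogenase, fell (-0.42, adjusted p = 0.0234), and malic enzyme Me1 (0.69, adjusted p = 0.0155) and the folate enzyme Mthfd1 (0.51, adjusted p = 0.0106) rose. Me1 shares 36.4% of its words with other genes, so its value is uncertain. Idh1 lost its call without KO replicates 1 or 3 or WT replicate 2, and Me1 without KO replicate 3 or WT replicate 2 (adjusted p up to 0.0997 and 0.0530). Of 11 channels and transporters of the phagosome and plasma membrane, 1 was called higher and 1 lower. The potassium channel Kcnn4 rose to 48.6 ± 5.01 CPM in KO, against 25.4 ± 4.47 CPM in WT (SD, n = 3 each; log2 fold change 0.91, adjusted p = 0.00119). Atp6v1a, a subunit of the vacuolar proton pump, was lower (-0.35, adjusted p = 0.0322) and lost its call without any 1 of the KO libraries or WT replicates 1 or 2 (adjusted p up to 0.146).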

How the data were processed

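RNA of 3 Capns1 KO and 3 WT macrophage libraries after 24 h of LPS was analysed, with groups and replicate numbers from the sample titles. The authors deposited whole read counts and FPKM per gene for 16266 genes. Tools named by the submitters' processing notes are fastp, HISAT2 and HTSeq, with build mm10 and no versions or counting settings. FPKM as deposited by the authors could be rebuilt from the count, the library's total and 1 fixed length for each gene to within 1% for 99.99% of values checked.

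The count test was edgeR's (version 4.0.16, R 4.3.3): filterByExpr, TMM, quasi-likelihood F test and Benjamini-Hochberg adjustment over 12219 genes. CPM uses the column total. SE is the size of the log2 fold change over the square root of F. Alternatives were other scalings, DESeq2 1.42.0, limma 3.58.1 (voom, or trend after adding 1 or 0.1 to FPKM before log2), other filters, a replicate block and left-out libraries. The procedure was tested on simulated counts. Each pair of libraries differed by more than sampling noise.

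The 7 genes, the lists and the alternatives were chosen with earlier results of these data known. Named were all 7 genes, up to 4 called genes of smallest p per list or 2 where none was called, Capns1, and the 3 genes nearest in pattern to Cybb and to Ncf4 with a mean CPM of at least 5. Other genes named from the lists, among them Prdx2, Spi1, Itgam, Rap1a, Sod1, Sod2, G6pdx, Pgd and Vav1, were chosen after their values were seen. One gene within that rule, 1 marker and 1 promoter motif are not reported here. Shared sequence was taken as words of 32 bases in GENCODE M21 transcripts, and positions are from RefSeq on GRCm38.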

Additional observations from a re-analysis of the deposited data

How the results depend on the processing

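Over 18 alternatives, Ncf4 stayed lower in KO in each, and Cybb, Cyba, Rac1 and Hvcn1 kept their direction without being called in any. Ncf1 turned to -0.066, -0.0058 and -0.13 without KO replicate 2, WT replicate 3 or both. Rac2 turned to 0.00069, 0.037 and 0.032 without KO replicate 1, KO replicate 3 or WT replicate 1. Over the settings that left libraries out, Ncf1 ranged from -0.13 to 0.13 and Rac2 from -0.14 to 0.037. With 1 library left out, calls over all genes ranged from 1119 to 1741 (1790 with all 6), those higher in KO from 704 to 1039, those lower in KO from 359 to 742, those among the 7 oxidase genes from 0 to 1 and those in the 9 lists from 11 to 22. A group left with 2 libraries shares its estimate of spread with the other group. Without both WT replicate 3 and KO replicate 2, 3186 genes were called, 1681 higher and 1505 lower, with 43 in the lists; there the second principal component also separated the groups (10.4 to 12.6 in KO and -12.4 to -8.21 in WT). With the replicate number as a block in edgeR, 2526 genes were called, 1362 higher and 1164 lower in KO, against 1790, 1031 and 759. Same-numbered libraries deviated together with r = -0.098, 0.23 and 0.18 for numbers 1, 2 and 3. KO replicate 1 was closest to WT replicate 3 (0.26) and WT replicate 1 to KO replicate 2 (0.16). KO replicates 2 and 3 were each closest to the WT replicate of the same number. With 3 libraries in each group, these values cannot decide whether the numbers pair the samples. The block called the same 1 of 7 oxidase genes, Ncf4. Depth limits none of the 7, which had at least 4611 counts each, whereas Sod3 and Tiam2 were low in WT.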
